A study of Mus musculus with 4 samples.

Results

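Bipolar cells carry the signals of rods and cones to the inner retina, and the cone bipolar cells fall into several types that are told apart by the depth of their axon ending, by their response to light and by the genes they express. The markers described here are 8 genes taken as markers of cone bipolar types in the mouse: Tacr3, Syt2, Neto1, Hcn4, Nnat, Cpne9, Lect1 and Erbb4. All probe sets that the platform annotation gives to exactly 1 of these genes were taken, with Lect1 found under its current symbol Cnmd. This gave 13 probe sets of 7 genes, out of 18193 genes and 45037 non-control probe sets in the table. Tacr3, Neto1 and Syt2 have 3 probe sets each, and Nnat, Cpne9, Erbb4 and Cnmd have 1 each. Hcn4 was not analysed here.

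The probe sets were compared between 2 samples of MP bipolar cells and 2 samples of MP amacrine cells, sorted from retinas of mice at postnatal day 6. All sorted cells carried the MP transgene, which marks a subset of retinal neurons with the fluorescent protein CFP, and the mice were of mixed C57Bl6 and CD1 background, bred from carrier males and females without the transgene. MP bipolar cells were CFP-positive cells left after cells bound by the VC1.1 antibody, an amacrine cell label, were removed on a magnetic column, and MP amacrine cells were CFP-positive and VC1.1-positive. Each sample held about 1000 cells, and the 2 samples of a group came from different litters. The sort for bipolar cells used no bipolar marker, and the comparison asks which of these type markers were high in it.

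Cone bipolar types divide into OFF types, which respond to glutamate through ionotropic receptors, and ON types, which use the metabotropic receptor mGluR6. In the adult mouse retina Tacr3, the neurokinin B receptor, marks OFF types 1 and 2. Syt2, a synaptic vesicle calcium sensor, marks OFF type 2 and ON type 6. Erbb4, a neuregulin receptor, and Hcn4, a cation channel opened by hyperpolarisation, mark OFF type 3a, and Nnat, a small imprinted membrane protein, marks OFF type 3b. Cpne9, a copine, marks ON type 9. Neto1 is an auxiliary subunit of kainate and NMDA receptors, and Cnmd, or chondromodulin, is a matrix glycoprotein best known from cartilage. Neto1 and Cnmd were not assigned to a type here, so their values do not point to any 1 type. At postnatal day 6 bipolar cells are still maturing, so adult type markers need not yet be at their adult level.

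The sequence before a start of the gene is shown for Tacr3 and Syt2, the tested markers for which a promoter window was used, because one passed the test and the other did not. The windows are the 250 bases before the start of Tacr3 and before the downstream one of the Syt2 starts, from RefSeq on GRCm38.p6, plus strand, 5′ to 3′, with every match to the E-box motif CANNTG, the site of bHLH transcription factors, in capitals.
Tacr3 (chr3:134828757-134829006): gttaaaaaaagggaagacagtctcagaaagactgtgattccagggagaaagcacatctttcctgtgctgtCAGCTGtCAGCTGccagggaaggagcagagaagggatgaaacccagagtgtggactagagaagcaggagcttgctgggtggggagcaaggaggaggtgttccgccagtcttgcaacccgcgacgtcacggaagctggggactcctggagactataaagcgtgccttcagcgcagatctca
Syt2, downstream start (chr1:134709050-134709299): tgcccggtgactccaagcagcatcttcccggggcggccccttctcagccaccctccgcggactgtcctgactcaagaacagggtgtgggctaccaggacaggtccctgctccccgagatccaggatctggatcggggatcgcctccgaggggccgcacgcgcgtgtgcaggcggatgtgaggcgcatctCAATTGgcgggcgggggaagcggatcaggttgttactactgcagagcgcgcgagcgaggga
The Tacr3 window held 2 matches, both reading CAGCTG, whose first bases lie 180 and 173 bases before the start, and the Syt2 window held 1 match, 61 bases before that start. The printed Syt2 window lies wholly inside the annotated Syt2 gene. The window of the upstream Syt2 start, not printed, overlaps the gene only in part, held 0 matches and had a GC content of 76.0%. Among 32851 such windows of all genes, 66.2% held at least 1 CANNTG, 31.8% at least 2 and 1.26% at least 2 copies of CAGCTG, which was counted after the Tacr3 window was seen. The homeodomain motifs TAATTA and TAATCC, searched on both strands, were in 4.84% and 6.25% of all windows and in neither gene's windows. GC content was 54.4% in the Tacr3 window and 66.4% in the Syt2 window, with a median of 52.4% over all windows. These matches describe letters, and binding was not measured.

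Array medians lay between 44.5 and 47.1 intensity units, so an intensity well under 45 is in the dim part of the array. Pearson's r of log2 values over all non-control probe sets, which are not independent replicates, was 0.982 between the MP bipolar arrays, 0.973 between the MP amacrine arrays and 0.931 to 0.946 between groups. MP amacrine replicate 2 stood apart in RNA quality, where the 3-prime Gapdh signal exceeded the 5-prime one by 3.21 on the log2 scale, against 1.78 to 2.0 on the other arrays. A probe set was tested when it lay above the array median on at least 2 of the 4 arrays. Of the 13 marker probe sets 6 were tested, 2 of Tacr3, 3 of Neto1 and 1 of Syt2. The other 7 were too dim, 5 of them at or below the median on every array and 2 above it on 1 array.

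**Figure D1:**
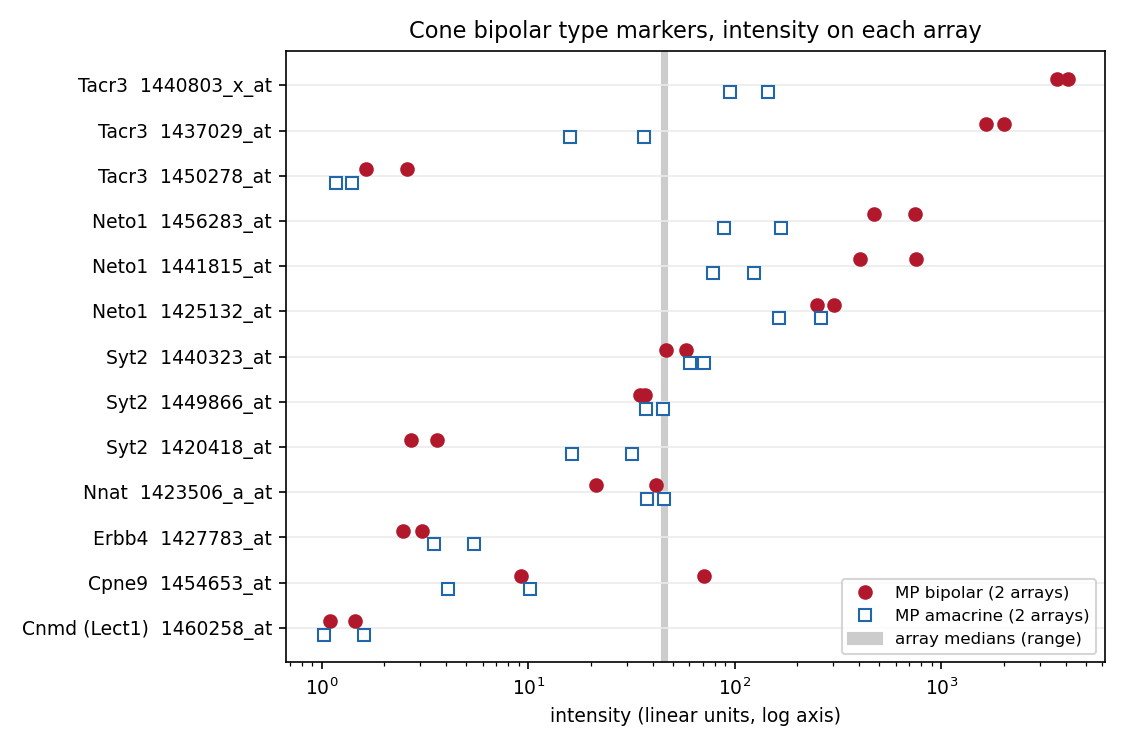
Intensity of each of the 13 marker probe sets on the 2 MP bipolar arrays (filled circles) and the 2 MP amacrine arrays (open squares), on a log axis, with the range of the array medians in grey. Tacr3 by 2 probe sets and Neto1 by 2 probe sets lie to the right of the amacrine values, and most other markers lie at or left of the medians.

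Tacr3 was high in MP bipolar cells and low in MP amacrine cells by 2 of its 3 probe sets, and it was the marker with the largest difference. Its gene lies on chromosome 3 (chr3:134829007-134934581, GRCm38). Probe set 1440803_x_at read 3638 and 4083 on the MP bipolar arrays, against 145 and 94.5 on the MP amacrine arrays. Both bipolar arrays were far above both amacrine arrays, and the lower bipolar value was 25.1 times the higher amacrine value. The log2 difference, MP bipolar minus MP amacrine, was 4.86 (SE 0.25, 95% interval 4.27 to 5.45, limma adjusted p = 2.01e-04, n = 2 per group). The suffix _x_at marks a probe set with probes that may also bind other transcripts. Probe set 1437029_at, which has no such suffix, read 1645 and 2011 on the MP bipolar arrays, against 36.3 and 15.9 on the MP amacrine arrays. Its groups did not overlap either, and its difference of 5.49 (SE 0.30, 95% interval 4.77 to 6.21, limma adjusted p = 2.01e-04) was number 6 of 23648 tested probe sets in order from the most positive, and that of the _x_at probe set was number 16. Since both amacrine values of 1437029_at lay below the array medians, this probe set entered the test through the bipolar arrays alone.

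The last Tacr3 probe set, 1450278_at, gave almost no signal anywhere. It read 2.57 and 1.64 on the MP bipolar arrays and 1.40 and 1.17 on the MP amacrine arrays, within a few units of the lowest intensity in the table, 0.73, and was not tested. The probe sets of Tacr3 thus do not read alike, and where in the transcript each one lies was not used here. Within the MP amacrine group, Tacr3 was 1.53 and 2.28 times higher on replicate 1 than on replicate 2 by the bright probe sets. The MP bipolar arrays differed less, with replicate 2 at 1.12 and 1.22 times replicate 1.

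Neto1 was higher in MP bipolar cells by 2 of its 3 probe sets, by less than Tacr3, and it was also measured in MP amacrine cells above the array median. Probe set 1441815_at read 402 and 752 on the MP bipolar arrays, against 78.4 and 124 on the MP amacrine arrays. The log2 difference was 2.30 (SE 0.36, 95% interval 1.44 to 3.16, limma adjusted p = 0.00978). Probe set 1456283_at read 469 and 749 on the MP bipolar arrays, against 88.6 and 167 on the MP amacrine arrays, a difference of 2.14 (SE 0.36, 95% interval 1.28 to 3.0, limma adjusted p = 0.0129). The groups did not overlap by either probe set, although the bipolar replicates themselves differed 1.87-fold and 1.6-fold, with replicate 2 the higher. Without MP bipolar replicate 2 the differences were 1.86 and 1.81 and were no longer called, in a fit with 1 bipolar array. Without MP bipolar replicate 1 they were 2.74 and 2.47. Apart from the replicates, with no filter on dim probe sets the same differences as in the main fit had limma adjusted p of 0.0991 and 0.11.

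The remaining Neto1 probe set, 1425132_at, did not pass the test. It read 251 and 303 on the MP bipolar arrays and 164 and 261 on the MP amacrine arrays, so the groups overlapped. The difference was 0.39, with a 95% interval of -0.29 to 1.07 (limma adjusted p = 0.526). Whether the probe sets of Neto1 differ from one another was not tested. On all 3 of them MP amacrine replicate 1 was below replicate 2, the opposite order to Tacr3.

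Syt2 did not pass the test, and none of its probe sets was higher in MP bipolar cells. Probe set 1440323_at, the one that was tested, read 58.1 and 46.3 on the MP bipolar arrays, against 70.9 and 60.7 on the MP amacrine arrays. Every bipolar value was below every amacrine value, but the difference of -0.26 was within the error of the fit (95% interval -0.77 to 0.25, limma adjusted p = 0.569). Probe set 1449866_at read 36.7 and 34.6 on the MP bipolar arrays and 37.2 and 44.7 on the MP amacrine arrays, below the medians throughout. Probe set 1420418_at read 3.62 and 2.71 on the MP bipolar arrays and 31.6 and 16.3 on the MP amacrine arrays. It too lay below every median and was not tested, and its log2 difference was -1.03. The Syt2 gene lies on chromosome 1 (chr1:134646534-134753149, GRCm38).

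Of the markers of types 3a and 3b described here, Erbb4 and Nnat were dim in both groups, and Hcn4 was not analysed. Erbb4 read 3.07 and 2.48 on the MP bipolar arrays and 5.43 and 3.48 on the MP amacrine arrays. Nnat, measured by a probe set whose suffix _a_at marks alternative transcripts of 1 gene, read 41.4 and 21.4 on the MP bipolar arrays and 45.6 and 37.7 on the MP amacrine arrays. Neither was tested, and their log2 differences were -0.12 and -0.31, with overlapping groups for Nnat and with both bipolar values just below both amacrine values for Erbb4.

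Cpne9, the type 9 marker, was above the array median on 1 array of the 4. It read 9.18 and 70.7 on the MP bipolar arrays and 4.10 and 10.1 on the MP amacrine arrays. MP bipolar replicate 2 was thus 7.70 times replicate 1, which itself lay between the amacrine values, so the higher group mean came from 1 array. Cnmd read 1.44 and 1.10 on the MP bipolar arrays and 1.02 and 1.6 on the MP amacrine arrays, with overlapping groups near the bottom of the scale. With no detection calls in the table, none of these dim readings shows that a transcript was absent, and in sorted samples fewer cells of a type and less RNA per cell cannot be told apart.

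**Figure D2:**
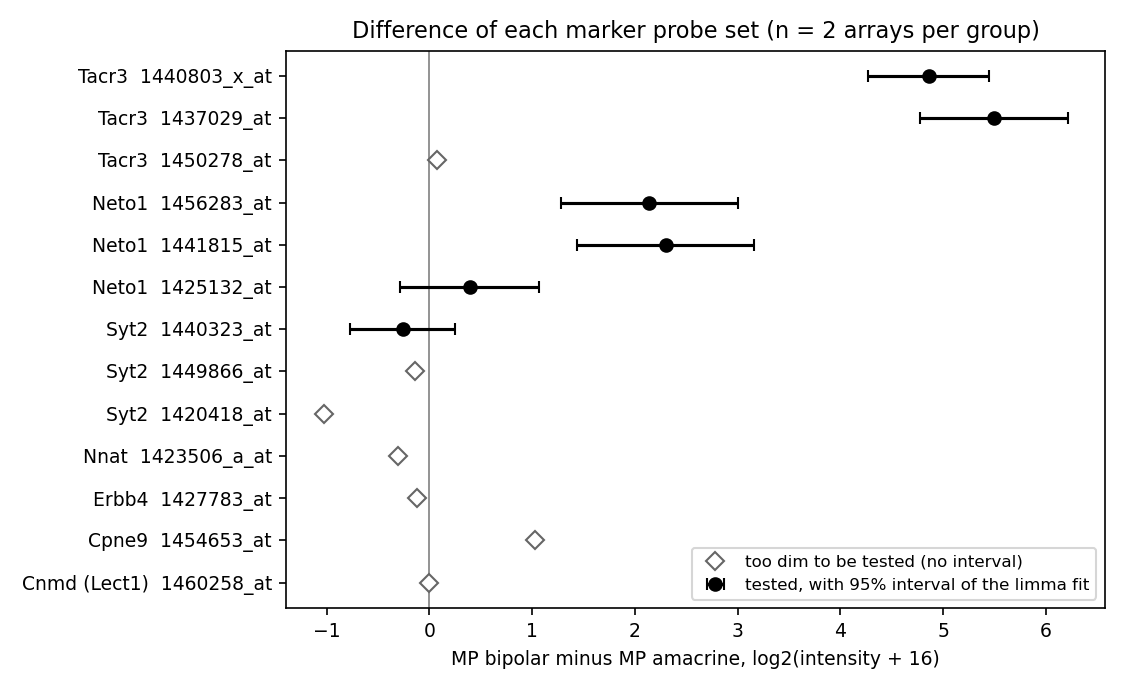
Log2 difference, MP bipolar minus MP amacrine on the log2(intensity + 16) scale, of each marker probe set, with the 95% interval for the 6 tested ones (filled) and no interval for the 7 dim ones (open diamonds). The intervals of 2 Tacr3 and 2 Neto1 probe sets lie above 0, and those of the remaining Neto1 probe set and of Syt2 cross it.

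In counts, 4 of the 6 tested marker probe sets were called higher in MP bipolar cells and 0 lower by limma, at an adjusted p under 0.05, and 0 were lower at an unadjusted p under 0.05 either. Among all 23648 tested probe sets 4.94% were called higher in MP bipolar cells and 4.52% lower, 9.46% in all. The 4 calls come from 2 genes and are not independent, and 1 of them, Tacr3 1437029_at, passed the filter through the MP bipolar arrays alone, so it adds no support to the count. At the edges of the filter stood Tacr3 1437029_at, above the median on 2 arrays, Syt2 1440323_at, above the median on all 4 arrays with a lowest value of 46.3, and Cpne9 and Nnat, each above it on 1 array. Probe sets with both MP bipolar arrays above both MP amacrine arrays made up 27.4% of all those tested.

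**Figure D3:**
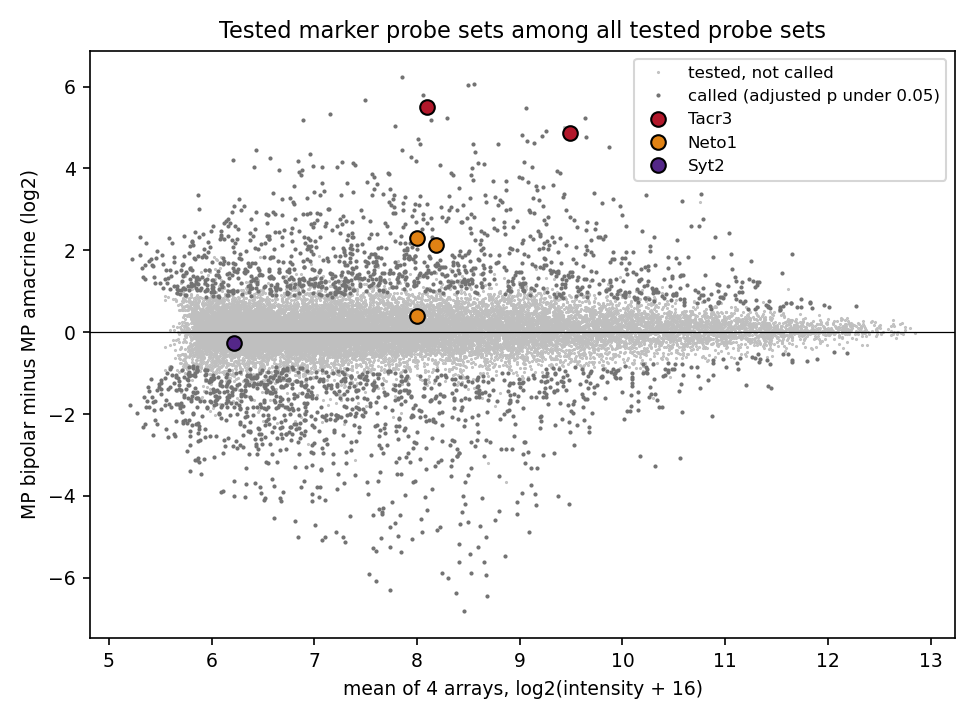
Log2 difference, MP bipolar minus MP amacrine, against the mean log2(intensity + 16) of the 4 arrays for all 23648 tested probe sets (light grey, not called; dark grey, called), with the tested probe sets of Tacr3, Neto1 and Syt2 in colour. Both Tacr3 points stand near the upper edge at 4.86 and 5.49, 2 Neto1 points near 2, and the Syt2 point near 0.

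The tested probe sets nearest to each marker were found by the Euclidean distance over the 4 log2 values. For Tacr3 they belonged to Mylk, a myosin light chain kinase, at a distance of 0.55, and Pcdh17, a protocadherin, at 0.57. For Neto1 they were Camk1d and Mdga2, both at 0.60, and for Syt2 they were Ccdc50 at 0.08 and Urm1 at 0.09. With 4 arrays in 2 groups, many probe sets share such a pattern, and dim probe sets lie close to one another.

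Other genes of the OFF types included several that were higher in MP bipolar cells and Ebf1, which was far lower. Each gene is given by its brightest tested probe set, and 5.36% of 11592 tested genes were called higher in MP bipolar cells and 5.38% lower, with a median log2 difference of 0.03. Of 15 further OFF type genes 13 were tested, 7 were higher, 2 lower and 4 not called, with a median of 2.27. Of the 13, 3 lay above the array medians on the MP bipolar arrays alone (Fezf2, Lhx3 and Grik1) and 1 on the MP amacrine arrays alone (Ebf1), so the filter partly set their calls and the median, and without these 4 genes 4 were higher and 1 lower. Whether OFF and ON genes differ was not tested. Pcdh17, a marker of type 1, read 4748 and 5010 on the MP bipolar arrays, against 164 and 76.9 on the MP amacrine arrays (5.24, SE 0.32). Fezf2, a zinc finger transcription factor, read 1605 and 1760 on the MP bipolar arrays, against 38.9 and 24.1 on the MP amacrine arrays (5.18, SE 0.25). These genes had both amacrine arrays far below both bipolar arrays. Ebf1, a transcription factor that some OFF types express, went the other way, with 39.3 and 33.2 on the MP bipolar arrays and 2789 and 3600 on the MP amacrine arrays (-5.93, SE 0.24). Limma adjusted p for Pcdh17, Fezf2 and Ebf1 lay between 1.59e-04 and 2.67e-04. Prkar2b, the other OFF type gene called lower, lay above the array medians throughout. It read 377 and 248 on the MP bipolar arrays and 844 and 757 on the MP amacrine arrays (-1.34, SE 0.26, limma adjusted p = 0.0247).

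Of 9 genes of single ON cone bipolar types 4 were tested, 1 was higher, 1 lower and 2 not called, with a median of -0.10. Slitrk5, a synaptic adhesion protein, read 232 and 126 on the MP bipolar arrays, against 33.7 and 50.3 on the MP amacrine arrays (1.71, SE 0.32, limma adjusted p = 0.0192). Serpini1, a neuronal protease inhibitor, read 182 and 156 on the MP bipolar arrays, against 672 and 603 on the MP amacrine arrays (-1.82, SE 0.23, limma adjusted p = 0.00411). Htr3a, Cck and Lrrtm1 were too dim to be tested, with no value above 31.1 by their brightest probe sets. Of 13 genes of the ON bipolar list, most of them of the mGluR6 cascade, 11 had a single-gene probe set. Grm6, the mGluR6 gene itself, was not analysed here. Of the 11 genes 8 were tested, 4 were higher, 0 lower by limma (1 lower at an unadjusted p under 0.05) and 4 not called, with a median of 1.74 (3 higher without Rgs11, which passed the filter through the MP bipolar arrays alone). Those higher included Rgs7 (3.18, SE 0.22) and Rgs11 (2.55, SE 0.20), regulators of G protein signalling, and Rgs9bp (3.15, SE 0.27). Limma adjusted p for these 3 genes lay between 4.23e-04 and 9.68e-04. Trpm1, the channel that the cascade closes, was too dim to be tested, with 25.1 and 25.4 on the MP bipolar arrays and 22.4 and 26.7 on the MP amacrine arrays. Isl1, a LIM homeodomain factor of ON bipolar cells that is also expressed in other retinal neurons, did not pass (-0.64, limma adjusted p = 0.124).

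**Figure D4:**
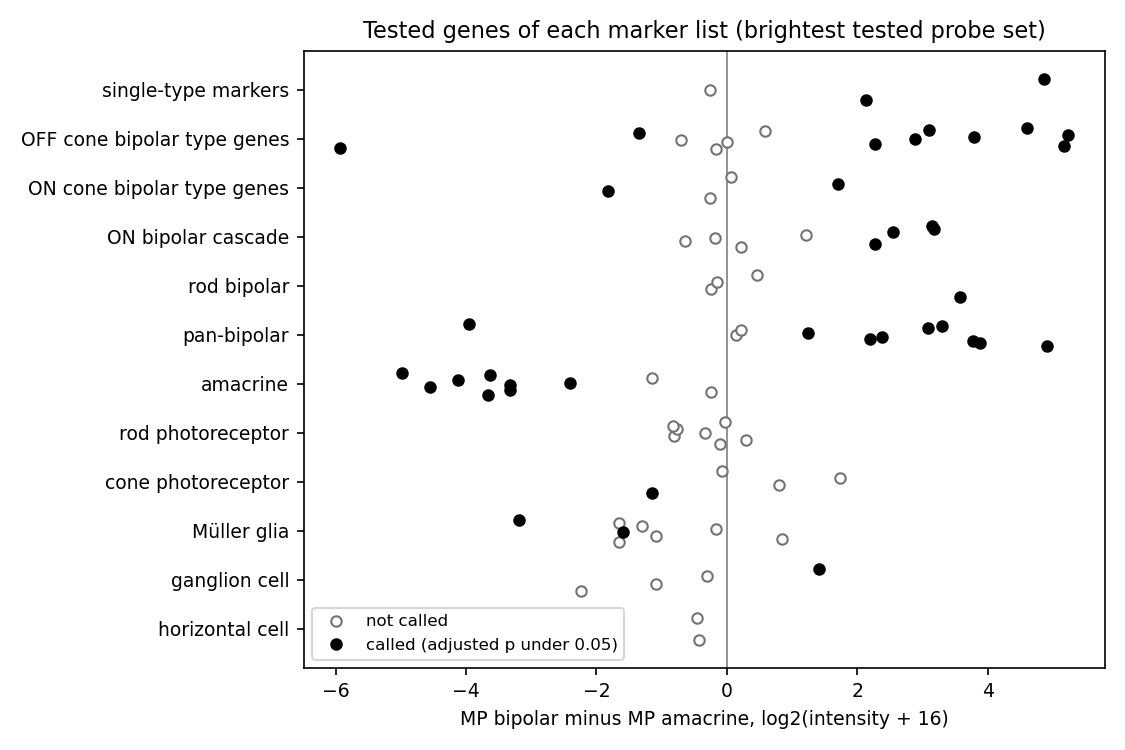
Log2 difference, MP bipolar minus MP amacrine, of every tested gene of each marker list by its brightest tested probe set, with called genes filled and others open. Of the OFF type genes 7 stand above 2, and of the amacrine genes 8 stand below -2, while the photoreceptor, horizontal and ganglion cell lists hold 2 called genes in all.

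Markers of bipolar and other cells were set beside the label of the sort, which came from the sample titles. The list called pan-bipolar held 12 genes, and whether each of them, Cabp5 included, is expressed in every bipolar type was not checked. Of the 12 genes 11 were tested, 8 were higher in MP bipolar cells and 1 lower, with a median of 2.38 (6 and 1 without the 2 genes that passed the filter through the MP bipolar arrays alone). Cabp5, a calcium-binding protein, was higher by 4.91 (SE 0.74), Car10, a carbonic anhydrase relative, by 3.88 (SE 0.23), and St18, a zinc finger factor, was lower at -3.96 (SE 0.27). The other tested probe set of Car10 had the opposite sign. Cabp5 differed within the MP amacrine group, at 259 and 29.4, with replicate 1 the higher. Of 5 rod bipolar genes 4 were tested and Car8, which passed the filter through the MP bipolar arrays alone, was called higher (3.58, SE 0.34), while Prkca, the standard rod bipolar marker, read 394 and 418 on the MP bipolar arrays and 490 and 478 on the MP amacrine arrays (-0.25, limma adjusted p = 0.605).

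Of 11 amacrine genes 10 were tested, 8 were lower in MP bipolar cells and 0 higher by limma (also 0 higher at an unadjusted p under 0.05), with a median of -3.48. Of the 10, 3 passed the filter through the MP amacrine arrays alone (Tfap2b, Tfap2c and Snhg11), so the filter partly set their calls and the median. Without these 3 genes 5 were lower. The amacrine genes with the most negative differences were Tfap2c (-4.99, SE 0.36), Pax6 (-4.56, SE 0.25), both transcription factors, and Snhg11, a noncoding RNA (-4.13, SE 0.59). Their summed intensity over the 11 genes was 713 and 859 on the MP bipolar arrays, against 8295 and 8115 on the MP amacrine arrays, and none of the 11 was at or below 1 on every array. Rod genes were present in both groups, with sums over 8 genes of 9365 and 11312 on the MP bipolar arrays and 14137 and 9221 on the MP amacrine arrays. None of the 7 tested was called by limma (3 were lower at an unadjusted p under 0.05), and the brightest, Gngt1, gave 0.30 (limma adjusted p = 0.68). Sums over 10 Müller glia genes were 2213 and 2777 on the MP bipolar arrays, against 4640 and 4314 on the MP amacrine arrays, with Vim (-3.19, SE 0.35) and Dkk3 (-1.6, SE 0.21) lower among 8 tested. At an unadjusted p under 0.05, 6 of these 8 were lower and 1 higher, and their median was -1.45. Slc1a3, 1 of the 6, passed the filter through the MP amacrine arrays alone, so the filter partly set this count and the median. Of 4 tested cone genes Gnat2 was lower (-1.15, SE 0.22) and 3 were not called, with a list median of 0.37. Of 4 tested ganglion cell genes Thy1 was higher (1.41, SE 0.30) and 3 were not called, with a list median of -0.69. At an unadjusted p under 0.05, each of these 2 lists had 1 gene higher and 1 lower. Of 2 tested horizontal cell genes none was called by limma, or had an unadjusted p under 0.05, with Onecut2, the brighter, at -0.45. The part of these cells in the Tacr3 and Neto1 differences was not tested.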

How the data were processed

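Per the labels' protocols, RNA from sorted cells (PicoPure kit) went through 2 amplification rounds, was biotin-labelled and was hybridised to Affymetrix arrays. The deposited table gives an intensity, on a linear scale, for each of 45101 probe sets on each array. The sources used here do not name how the authors summarised and scaled the deposited intensities, and the table has no detection calls. Groups were taken from the sample titles. The intensities were used as log2(intensity + 16), which understates differences of dim genes, and 27.8% to 28.7% of the values of an array lay below 16.

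After removal of 64 control probe sets, 45037 stayed. Of these, 34945 had exactly 1 gene in the platform annotation, and 23648 lay above the array median on at least 2 arrays and were tested. Genes with no such single-gene probe set were not analysed here. MP bipolar was compared with MP amacrine by limma 3.58.1 in R 4.3.3 (lmFit, eBayes with an intensity trend, 2 residual degrees of freedom before moderation), two-sided, with Benjamini-Hochberg adjustment over all tested probe sets and a threshold of 0.05. The code of the fit was run on simulated data with known changes and a common spread for all probe sets, which does not test the results here. The precision is limited by the number of arrays, 2 per group. An exact permutation test of 1 value was not used, since 2 against 2 arrays cannot reach the threshold. Named genes are all members, the 2 nearest probe sets of each tested member, and up to 3 called genes of each list with the largest absolute difference, or the brightest. Lhx3, Grik1, Prkar2b, Htr3a, Cck, Lrrtm1, Trpm1, Isl1, Prkca, Tfap2b and Slc1a3 were chosen after their values were seen. The members and lists were chosen with earlier results of these data known. Alternatives were other scalings, filters, offsets and variance settings, 1 probe set per gene, the replicate number as a block, and each replicate left out.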

Additional observations from a re-analysis of the deposited data

How the results depend on the processing

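The number of probe sets called in all, 2237, stayed within 1.5 times under the other scalings, offsets of 1 and 64, the filter at the 75th percentile, no intensity trend and 1 probe set per gene. It was 745 with no filter on dim probe sets, and 988 to 2894 with each replicate left out, the lowest without MP bipolar replicate 2 and the highest without MP amacrine replicate 1. The number of marker probe sets called, 4, was 2 with no filter, where 13 were tested, 2 with 1 probe set per gene, where 3 were tested, and 2 to 4 with each replicate left out, with the 2 coming without MP bipolar replicate 2. The Tacr3 differences stayed called under every alternative that tested them, at 4.43 to 5.13 for 1440803_x_at and 4.39 to 6.18 for 1437029_at, with limma adjusted p of at most 0.011 and 0.0126. The Neto1 differences ranged from 1.86 to 2.74 and from 1.74 to 2.54, and were not called with no filter and without MP bipolar replicate 2. Neto1 1425132_at (0.08 to 0.70) and Syt2 1440323_at (-0.39 to -0.14) were not called under any alternative that tested them. The differences of the 6 tested marker probe sets kept their sign under each alternative that tested them, and the 7 dim ones were fitted with no filter only. Each fit without a replicate takes the spread of the group left with 1 array from the other group. Whether the replicate numbers pair the samples is not known. The deviations of same-numbered arrays correlated at -0.081, and a value from 2 arrays per group cannot decide it. With the replicate block 2361 probe sets were called in all and 4 marker probe sets. The table holds no background measure, so how far the markers below the array median lie above background is unknown.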
